A study of Homo sapiens with 6 samples.

Results

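SERPINB2 and the genes that surround it in the plasminogen activation system were followed in HEY cells, a human ovarian cancer cell line, after knockdown of PQBP1. The 7 members were SERPINB2, SERPINE2, PLAU, PLAUR, PLAT, ANXA2 and S100A10, taken by gene symbol from a table of 32679 genes, and all 7 were among the 11413 genes tested. SERPINB2 was chosen by its FPKM values in these same 6 samples, picked for its rise between the groups, so its values are a description and carry no test, while the other 6 members were tested. SERPINB2 stood near 7 FPKM (fragments per kilobase of transcript, normalized to the mapped fragments of each library, so a level per length) in the control samples and near 30 in the knockdown samples, whereas none of the other 6 members passed an adjusted p of 0.05.

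Plasminogen is a circulating zymogen that urokinase (PLAU) and tissue plasminogen activator (PLAT) cut into the protease plasmin, which digests fibrin and pericellular matrix. Urokinase works at the cell surface on its receptor PLAUR, and the complex of annexin A2 (ANXA2) with S100A10 binds plasminogen and tissue plasminogen activator there. Serpins trap both activators: SERPINB2 is largely kept inside the cell and is made by monocytes, keratinocytes and many carcinoma cells, and SERPINE2 (protease nexin) inhibits thrombin as well as urokinase.

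Poly(A) mRNA of 3 shNC samples and 3 shPQBP1 samples was sequenced in paired-end short reads. The shNC group carried a control hairpin and is labelled as untreated, the shPQBP1 group carried a doxycycline-inducible hairpin against PQBP1 and received doxycycline at 1 µg/ml, and both are labelled day 3. For PQBP1-depleted HEY cells the authors also describe a doxycycline treatment shorter than 3 days, so the induction time is uncertain. Effects of the hairpin and of doxycycline cannot be told apart in these samples. The hairpin lines were lentivirus-infected HEY cells selected with puromycin, and the samples are described as biological replicates without naming separate cultures or clones, so the p-values measure the spread between these samples.

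PQBP1, the targeted gene, stood at 7.18, 6.67 and 6.93 FPKM in the shNC samples and at 1.68, 1.72 and 1.44 FPKM in the shPQBP1 samples. The fitted log2 difference of PQBP1 was -2.04 ± 0.10 (SE, n = 3 per group, limma, adjusted p = 0.00154). Correlations of log2 levels across the tested genes were 0.926 to 0.955 between shNC replicate 1 and the other 5 samples and 0.956 to 0.969 among those 5. shNC replicate 1 also held the highest shNC value of each of the 7 members. Its FPKM total over all genes was the highest too, 318484 against 278286 to 304196 in the other 5 samples. In shNC replicate 1 29.8% of all genes were listed at 0, against 26.5% to 27.8% in the others. The depth of the samples is unknown. Of 8 ovarian carcinoma epithelium markers 5 passed the filter on low values, among them KRT7, KRT8 and KRT18, while MUC16 was listed at 0 in 5 samples and EPCAM stayed between 0.79 and 1.13 FPKM.

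SERPINB2 lies on the plus strand of chromosome 18 (hg38, 63871692 to 63903888 in GENCODE release 44), and its canonical transcript of 1906 bases has 8 exons. The 250 bases upstream of the RefSeq transcription start are shown for the 3 members that hold a match to any of 5 short motifs searched on both strands, because SERPINB2 transcription has been described to run through AP-1-like and cAMP-response-like elements next to its start. Capitals mark the matches, and each sequence is read 5′ to 3′ on the strand of the gene from RefSeq on GRCh38.p14: SERPINB2 at chr18:63887455-63887704 (plus strand), PLAUR at chr19:43670170-43670419 (minus strand) and ANXA2 at chr15:60397987-60398236 (minus strand).
SERPINB2: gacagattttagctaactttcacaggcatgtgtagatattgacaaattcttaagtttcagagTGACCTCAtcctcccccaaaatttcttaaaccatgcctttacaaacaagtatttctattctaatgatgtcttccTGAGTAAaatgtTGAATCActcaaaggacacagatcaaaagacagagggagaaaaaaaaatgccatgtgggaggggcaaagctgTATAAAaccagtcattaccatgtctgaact
PLAUR: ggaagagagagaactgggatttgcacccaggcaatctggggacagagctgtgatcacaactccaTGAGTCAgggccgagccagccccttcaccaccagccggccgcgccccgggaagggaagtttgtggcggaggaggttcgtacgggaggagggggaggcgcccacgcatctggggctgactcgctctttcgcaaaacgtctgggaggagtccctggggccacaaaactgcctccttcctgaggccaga
ANXA2: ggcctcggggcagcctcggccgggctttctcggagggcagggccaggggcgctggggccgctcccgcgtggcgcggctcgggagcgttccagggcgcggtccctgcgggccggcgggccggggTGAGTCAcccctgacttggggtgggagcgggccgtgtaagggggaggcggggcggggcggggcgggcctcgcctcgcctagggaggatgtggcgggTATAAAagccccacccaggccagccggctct

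The SERPINB2 window held 4 matches, none of which overlapped another. The AP-1-like and cAMP-response-like letters were chosen for SERPINB2 from such descriptions, so finding them here was fixed in advance. The number of matches in SERPINB2 therefore cannot be set against that of the other members. The cAMP-response-like letters TGACCTCA lay 188 to 181 bases before the start and occur in 1.81% of the 35116 RefSeq windows of the same length. Next came the AP-1-like letters TGAGTAA, 114 to 108 bases before the start (2.21% of windows), and TGAATCA, 102 to 96 bases before it (2.53% of windows). A TATA element, TATAAA, lay 30 to 25 bases before the start and is found in 10.7% of windows.

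PLAUR and ANXA2 each held 1 copy of the AP-1 consensus TGAGTCA, which occurs in 4.2% of windows, at 186 to 180 bases before the PLAUR start and 127 to 121 bases before the ANXA2 start. ANXA2 also held TATAAA, 31 to 26 bases before its start. SERPINE2 and PLAU, each with a pair of RefSeq starts, and S100A10 held none of the 5 motifs in these windows. A window was matched for 6 of the 7 members, with no entry for PLAT. The matches describe letters and were not tested as binding sites. The windows of SERPINB2, PLAUR and ANXA2 lie inside the GENCODE spans of these genes, so starts annotated further upstream were not searched. Which start HEY cells use was not tested. The SERPINB2 window had a GC content of 37.2%, against 78% for ANXA2 and 63.2% for PLAUR.

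**Figure D1:**
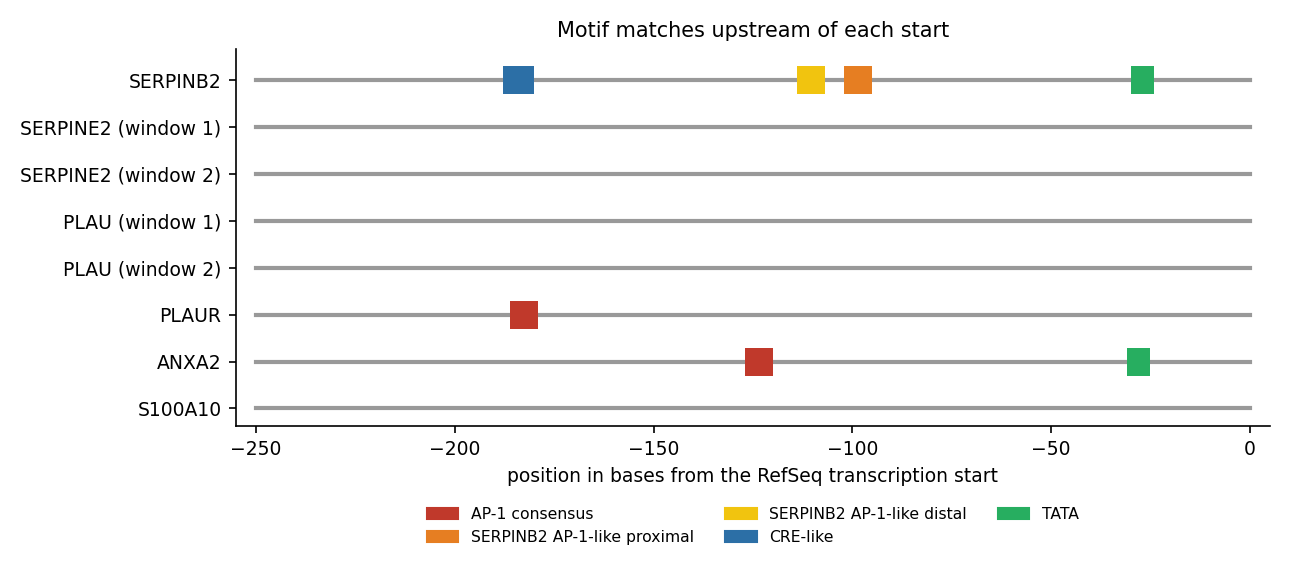
Positions of the 5 motifs in the 250 bases before each RefSeq start (x axis in bases from the start, 0 being the start), with 1 line per window and colored boxes for matches. SERPINB2 shows 4 boxes, ANXA2 shows 2, PLAUR shows 1, and the windows of SERPINE2, PLAU and S100A10 show none. The AP-1-like and cAMP-response-like letters were chosen for SERPINB2, so the numbers of boxes cannot be compared.

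Among the inhibitors, SERPINB2 stood at 7.88, 7.12 and 6.70 FPKM in the shNC samples and at 30.5, 30.3 and 30.9 FPKM in the shPQBP1 samples. Every shPQBP1 value lay far above every shNC value, and the 3 shPQBP1 values were close together. In these bulk libraries more RNA per cell and more cells that express the gene cannot be told apart. The means were 7.23 ± 0.598 and 30.55 ± 0.304 FPKM (SD, n = 3 each), a 4.22-fold ratio of means. The fitted log2 fold change was 2.07 ± 0.08 (SE), the 17th highest of the 11413 tested genes, and it stayed between 1.93 and 2.13 under all 16 other settings tried. In GENCODE a protein-coding gene model on the same strand (ENSG00000289724) shares 547 exon bases with SERPINB2 and was not analysed here.

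SERPINE2, which forms covalent complexes with thrombin and urokinase, stood at 9.10, 6.59 and 7.01 FPKM in the shNC samples. Its shPQBP1 values were 10.8, 10.4 and 10.3 FPKM, all above the shNC values, with shNC replicate 1 nearest to them. The log2 fold change was 0.48 ± 0.13 (SE) with an adjusted p of 0.109 in limma, and the exact permutation test gave its smallest possible p for 3 against 3 samples, 0.1. Without shNC replicate 1 the log2 fold change was 0.62 and the adjusted p 0.0184. SERPINE2 lies on the minus strand of chromosome 2 (hg38, 223975045 to 224039318).

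The activator PLAU, which encodes urokinase, stood at 423, 373 and 355 FPKM in the shNC samples and at 411, 479 and 462 FPKM in the shPQBP1 samples. The groups overlapped, since shNC replicate 1 exceeded shPQBP1 replicate 1. The log2 fold change was 0.23 ± 0.09 (SE) with an unadjusted p of 0.0475 and an adjusted p of 0.208. PLAU lies on chromosome 10 (hg38, 73909177 to 73917496, plus strand), where the lncRNA C10orf55 on the opposite strand shares 915 exon bases with it. C10orf55 was listed at 1.91 to 3.24 FPKM, and since strand-specific counting is not stated its reads and those of PLAU cannot be told apart in the shared bases.

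PLAT, which encodes tissue plasminogen activator, was low throughout at 7.15, 6.32 and 6.12 FPKM in the shNC samples and 5.59, 7.12 and 6.17 FPKM in the shPQBP1 samples. The groups overlapped widely. Its log2 fold change was -0.06 with a 95% interval of -0.34 to 0.23 (adjusted p = 0.785), and the sign turned without shNC replicate 1 (0.01), without shPQBP1 replicate 1 (0.02) and after GC and length correction (0.02).

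The urokinase receptor gene PLAUR (hg38, chromosome 19, 43646095 to 43670547, minus strand) stood at 28.9, 26.0 and 24.9 FPKM in the shNC samples and at 25.6, 25.6 and 26.5 FPKM in the shPQBP1 samples. All 3 shPQBP1 values lay inside the shNC range. The log2 fold change was -0.04 with a 95% interval of -0.23 to 0.16 (adjusted p = 0.80), and its sign turned to 0.02 without shNC replicate 1 and to 0.11 after correction for GC content and transcript length.

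ANXA2, the annexin of the cell-surface plasminogen receptor complex (hg38, chromosome 15, 60347134 to 60402883, minus strand), stood at 328, 300.0 and 290.1 FPKM in the shNC samples and at 363, 406 and 395 FPKM in the shPQBP1 samples. All 3 shPQBP1 values were above all 3 shNC values. The log2 fold change was 0.34 ± 0.08 (SE) with an adjusted p of 0.0698, and without shNC replicate 1 it was 0.39 with an adjusted p of 0.0444. Reads of ANXA2 can be shared with its processed pseudogene ANXA2P2 on chromosome 9 (33624274 to 33625293), a near-identical copy, so both levels are uncertain. ANXA2P2 was listed at 179 to 190.1 FPKM in the shNC samples and 212 to 217 FPKM in the shPQBP1 samples (log2 fold change 0.23, adjusted p = 0.0913).

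S100A10, the partner that ANXA2 holds at the membrane and protects from degradation (hg38, chromosome 1, 151982915 to 151993859, minus strand), stood at 482, 396 and 391 FPKM in the shNC samples and at 366, 371 and 361 FPKM in the shPQBP1 samples. The groups did not overlap, but here the shPQBP1 samples were the lower ones and shNC replicate 1 stood far above the other shNC samples. The log2 fold change was -0.20 ± 0.09 (SE) with an adjusted p of 0.243. Without shNC replicate 1 the log2 fold change was -0.11.

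**Figure D2:**
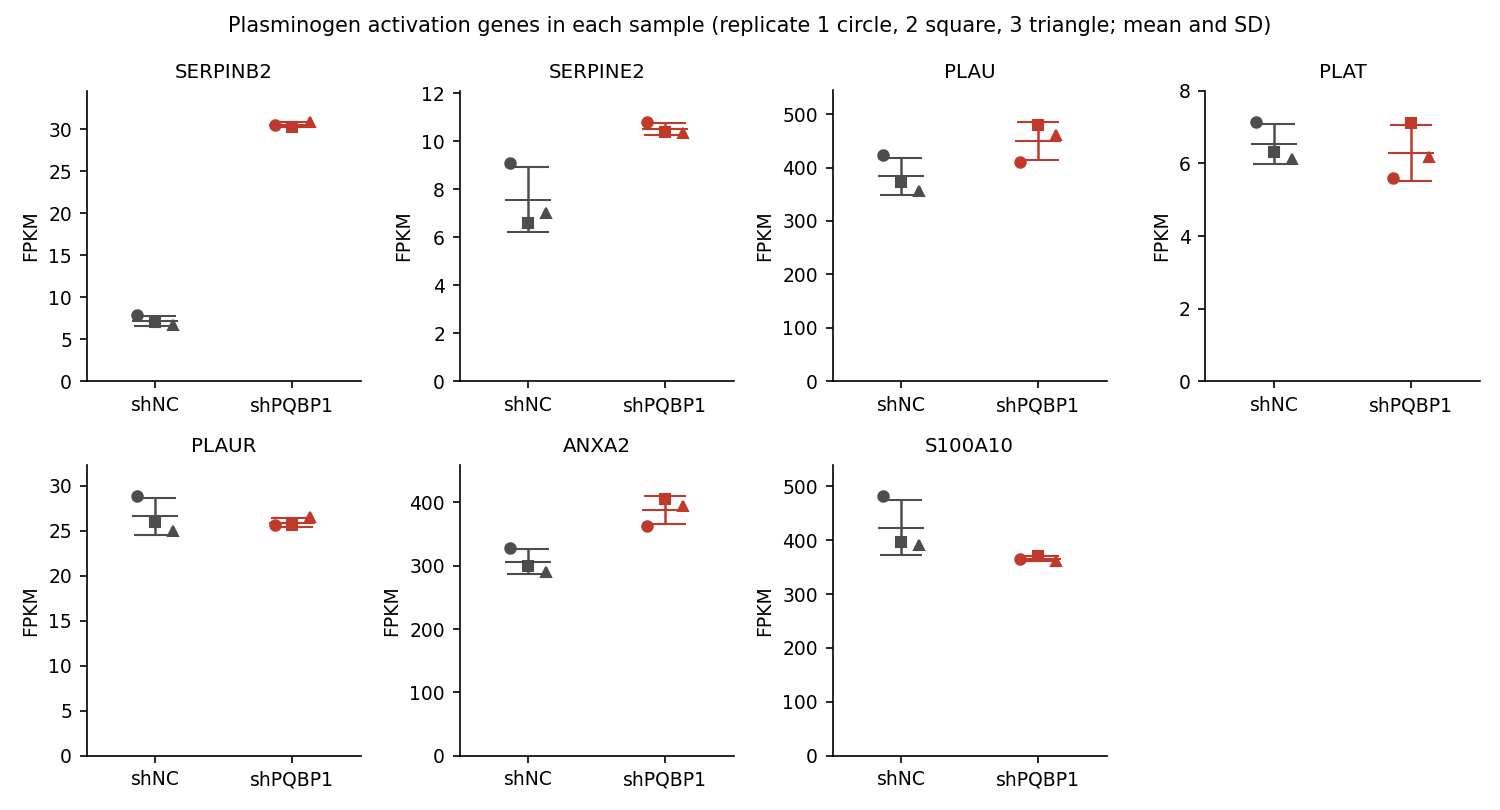
Level in FPKM (y axes from 0, linear) of the 7 members in each of the 3 shNC (gray) and 3 shPQBP1 (red) samples, with the mean and SD of each group; circles, squares and triangles are replicates 1, 2 and 3. SERPINB2 moves from about 7 to about 30 FPKM, while PLAU, PLAT and PLAUR overlap between the groups.

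Over the 6 members other than SERPINB2, 0 passed an adjusted p of 0.05 in limma, where 2.91% of all tested genes did (1.73% with a higher level and 1.18% with a lower one). Before adjustment 3 of the 6 had a p under 0.05, SERPINE2, PLAU and ANXA2, all higher, beside 23.6% of all tested genes. The groups did not overlap for 3 of 6, SERPINE2, ANXA2 and S100A10, beside 34.4% of all tested genes. None of the 6 exceeded a fold change of 2 with an unadjusted p under 0.05, the threshold that 1.52% of tested genes passed. Their median log2 fold change was 0.10, beside 0.02 over all tested genes. Once GC content and transcript length were corrected for, 3 of the 6 passed, with adjusted p-values of 0.0413 for SERPINE2, 0.0232 for PLAU and 0.0121 for ANXA2, but that setting called 8.24% of the 11385 genes with such values. With the replicate number added as a block to that correction, 0 of the 6 passed, with adjusted p-values of 0.116, 0.11 and 0.0935 for these genes.

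**Figure D3:**
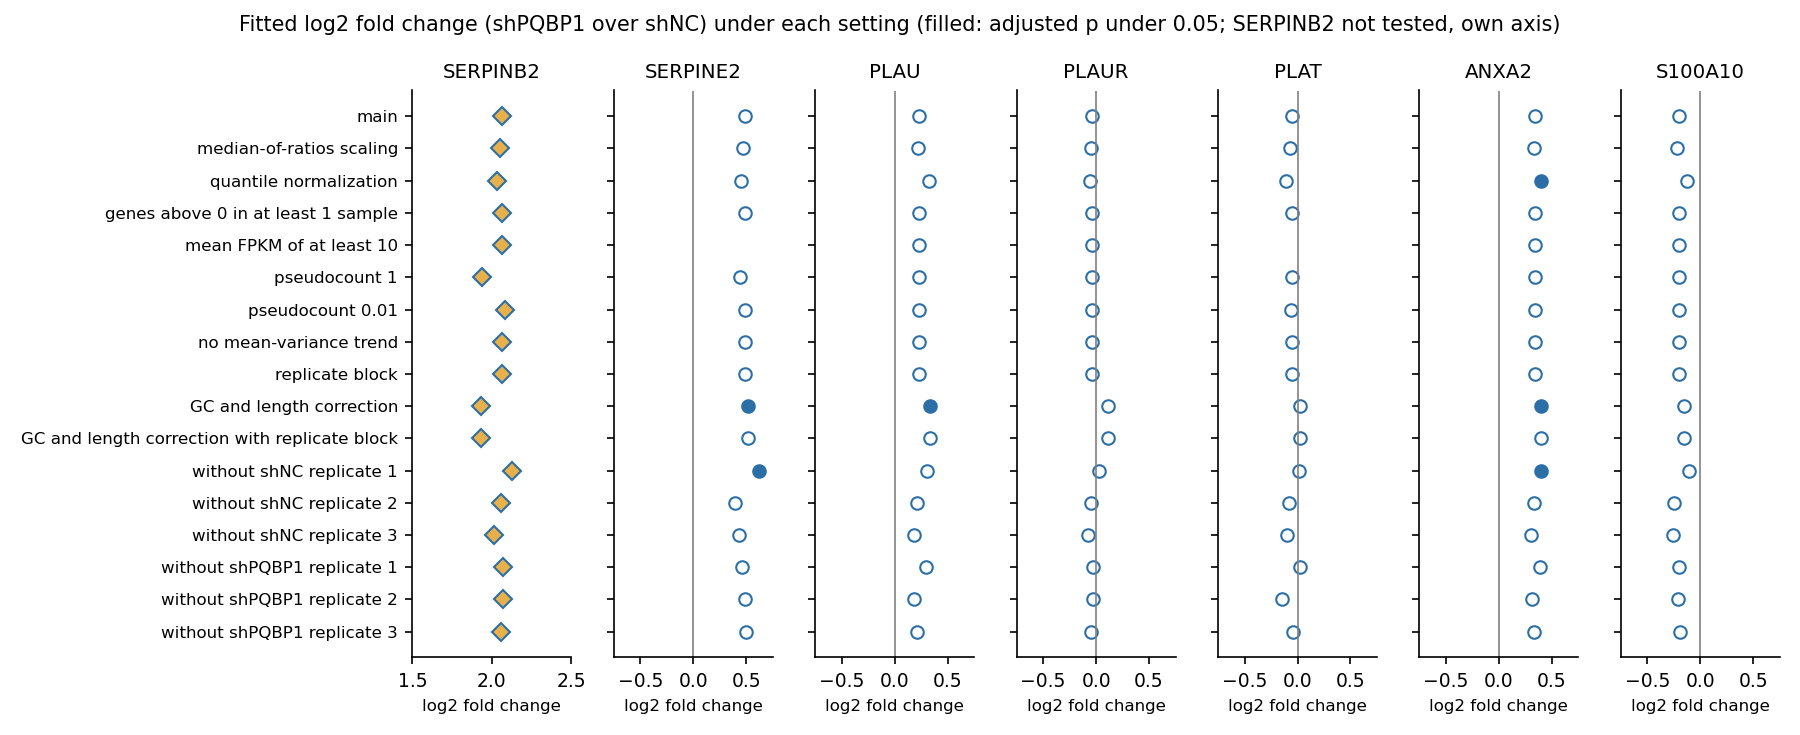
Fitted log2 fold change (x axes, shPQBP1 over shNC) of each member under the main setting and 16 others (rows), with filled points at an adjusted p under 0.05; SERPINB2 has its own axis and no test, and SERPINE2 and PLAT fall below the mean FPKM of 10. SERPINB2 stays between 1.93 and 2.13, ANXA2 is filled in 3 rows, SERPINE2 in 2 and PLAU in 1, and PLAUR and PLAT lie around 0.

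The members covered a wide range of levels, which FPKM allows to be set side by side because it is per length. In the shNC samples the order by mean level was S100A10 (423 FPKM), PLAU (384), ANXA2 (306), PLAUR (26.6), SERPINE2 (7.57), SERPINB2 (7.23) and PLAT (6.53). The values of S100A10 and PLAU, of SERPINE2 and SERPINB2, and of SERPINB2 and PLAT overlapped. In the shPQBP1 samples the order was PLAU (450.3 FPKM), ANXA2 (388), S100A10 (366), SERPINB2 (30.55), PLAUR (25.9), SERPINE2 (10.5) and PLAT (6.29), and only ANXA2 and S100A10 overlapped among neighbors in that order. SERPINB2 thus moved from beside PLAT to just above PLAUR. The place of ANXA2 in both orders is uncertain, since its reads can be shared with ANXA2P2.

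Ratios within a sample do not change when all genes of a sample are scaled by a common factor. They can change under quantile normalization or the GC content and length correction, under which they were not computed. The ratio of ANXA2 to S100A10 was 0.68, 0.757 and 0.741 in the shNC samples and 0.993, 1.1 and 1.09 in the shPQBP1 samples. The shPQBP1 ratios were all higher, with means of 0.726 ± 0.0405 and 1.06 ± 0.0588 (SD, n = 3 each). Reads of ANXA2 can be shared with its pseudogene ANXA2P2, so this ratio is as uncertain as the ANXA2 level.

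PLAUR over PLAU had means of 0.0694 and 0.0577 and PLAT over PLAU means of 0.017 and 0.014, the shPQBP1 ratios being lower, while SERPINE2 over PLAU had means of 0.0196 and 0.0235. The groups did not overlap in any of these 4 ratios, and no share over other ratios was computed. SERPINE2 over PLAU was 0.0215, 0.0177 and 0.0197 in the shNC samples and 0.0263, 0.0217 and 0.0224 in the shPQBP1 samples. In that ratio the groups nearly met. Of the 4 ratios 3 share PLAU, whose reads cannot be told apart from those of C10orf55 in their shared bases. Each of the 4 ratios gave an exact permutation p of 0.1 (two-sided, adjusted p = 0.1 over the 4), the smallest that 3 against 3 samples allow, so none could pass 0.05. As values without a test, SERPINB2 over PLAU was 0.0186, 0.0191 and 0.0189 in the shNC samples and 0.0742, 0.0633 and 0.0669 in the shPQBP1 samples. These are RNA levels, and protein and plasmin activity were not measured in these files.

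**Figure D4:**
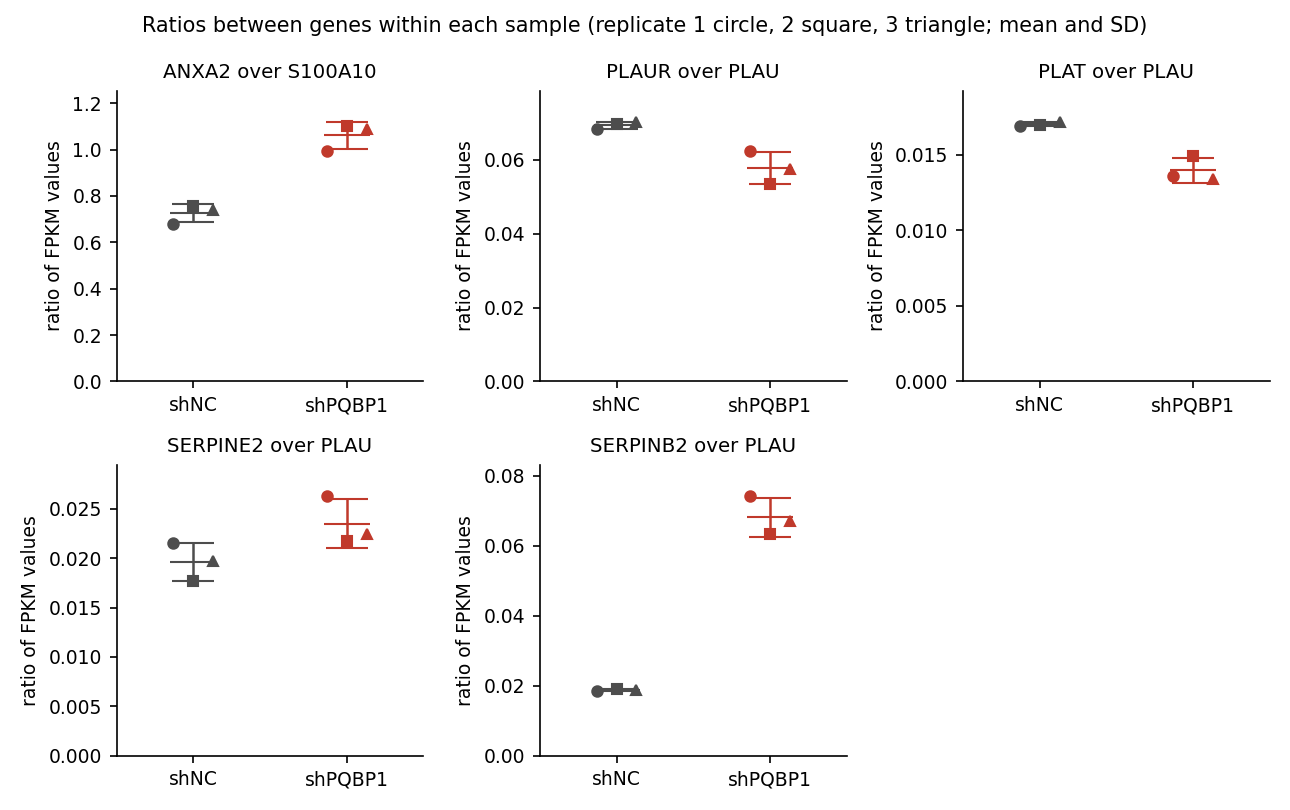
Ratio of FPKM values within each sample (y axes from 0, linear) for the 4 tested ratios and for SERPINB2 over PLAU, which was not tested, in 3 shNC (gray) and 3 shPQBP1 (red) samples with the mean and SD. The groups do not overlap in any panel, with ANXA2 over S100A10 at 0.68 to 0.757 in the shNC samples and 0.993 to 1.1 in the shPQBP1 samples.

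The rest of the plasminogen system was read from a list of 26 genes. Of these 23 were matched in the table and 13 passed the filter, and PLG, F11 and KLKB1 were not analysed here. At an adjusted p under 0.05, 1 of the 13 was higher (LRP1) and 1 was lower (MRC2), and before adjustment 8 of the 13 had a p under 0.05, of which 5 were higher and 3 lower. No overlap between the groups was seen for 10 of the 13, and the median log2 fold change was 0.09. Over all tested genes the shares were 2.91% after adjustment, 23.6% before it and 34.4% without overlap, with a median of 0.02.

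LRP1, the endocytic receptor that clears complexes of urokinase with its inhibitors, stood at 4.66, 4.83 and 4.22 FPKM in the shNC samples and at 6.29, 7.55 and 7.41 FPKM in the shPQBP1 samples. Every shPQBP1 value was higher, and the log2 fold change was 0.62 ± 0.11 (SE, adjusted p = 0.0405). The call was lost whichever of the 6 samples was left out, with adjusted p-values of 0.0551 to 0.167. STAT6, on the opposite strand and listed at 18.3 to 24.9 FPKM, shares 59 exon bases with LRP1.

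MRC2, the collagen-binding receptor that associates with PLAUR, stood at 6.34, 5.70 and 5.47 FPKM in the shNC samples and at 2.88, 3.25 and 2.70 FPKM in the shPQBP1 samples. The shPQBP1 values were all lower, and the log2 fold change was -0.97 ± 0.11 (SE, adjusted p = 0.0154). It was matched by its gene identifier, since the table lists it under the clone name AC080038, so its level is uncertain. The call held without shNC replicate 1 (adjusted p = 0.0214) and was lost without any 1 of the other 5 samples, with adjusted p-values of 0.0564 to 0.0856.

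Among the other activating proteases CTSB, the lysosomal cathepsin B, had the largest fitted difference. It stood at 79.5, 70.9 and 33.7 FPKM in the shNC samples and at 95.6, 106 and 104 FPKM in the shPQBP1 samples. Again there was no overlap, but shNC replicate 3 stood far below the other shNC samples, and the log2 fold change of 0.82 ± 0.32 (SE) had an adjusted p of 0.191. Without shNC replicate 3 it was 0.44 (adjusted p = 0.134), and without shNC replicate 1 it was 1.06 (adjusted p = 0.132). SERPINI1 (neuroserpin, an inhibitor of tissue plasminogen activator) had the largest fitted difference among the other inhibitors at 0.77 ± 0.23 (SE, adjusted p = 0.129), on levels of 0.70 to 2.10 FPKM.

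The list of coagulation genes, their inhibitors and protease receptors gave 3 calls among 8 tested of 12 listed, all higher, where 1.73% of all tested genes were called higher. TFPI2, a Kunitz-type inhibitor that blocks plasmin as well as factor VIIa, stood at 12.9, 11.5 and 10.9 FPKM in the shNC samples and at 30.5, 28.2 and 26.4 FPKM in the shPQBP1 samples. THBD (thrombomodulin, the thrombin receptor of the protein C pathway) stood at 5.47, 4.53 and 4.28 FPKM against 10.4, 12.1 and 11.1 FPKM. F3 (tissue factor, the cell-surface starter of coagulation) stood at 53.1, 68.9 and 68.8 FPKM against 124, 132 and 118 FPKM.

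In each of these 3 genes every shPQBP1 value exceeded every shNC value. The log2 fold changes were 1.26 ± 0.10 for TFPI2 (SE, adjusted p = 0.00479), 1.22 ± 0.12 for THBD (adjusted p = 0.00992) and 0.98 ± 0.12 for F3 (adjusted p = 0.0187). TFPI2 and THBD also exceeded a fold change of 2 with an unadjusted p under 0.05, beside 1.52% of all tested genes. The TFPI2 call held with each sample left out (adjusted p 0.00731 to 0.0385). That of THBD was lost without any 1 of the shPQBP1 samples (0.0511 to 0.0727), and that of F3 without shNC replicate 3 or any 1 of the shPQBP1 samples (0.0597 to 0.0889).

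**Figure D5:**
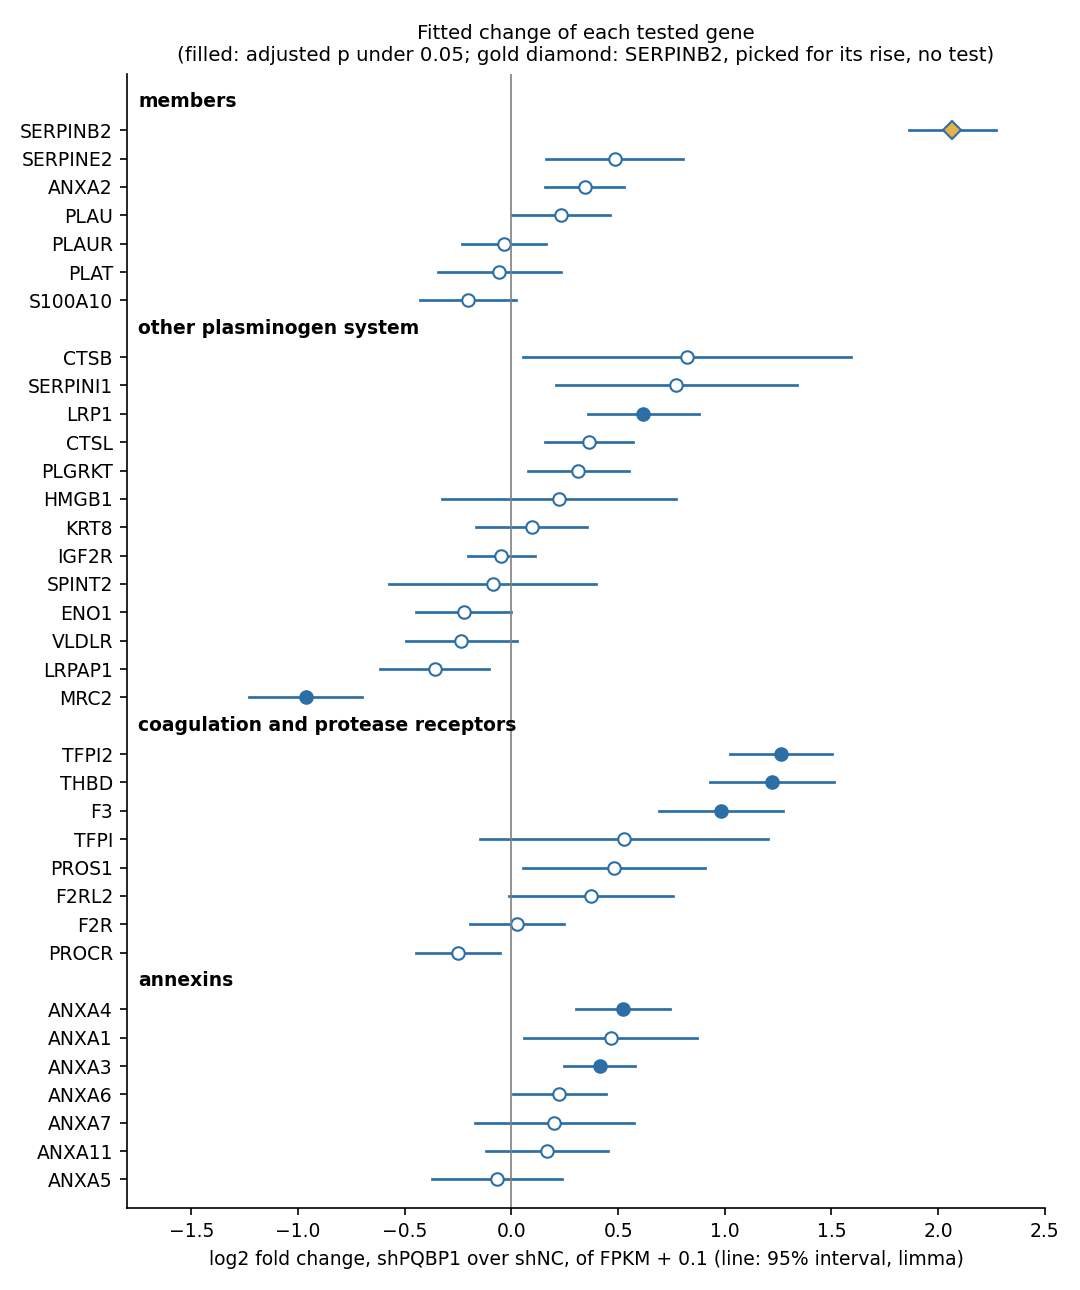
Fitted log2 fold change of FPKM + 0.1 (x axis, shPQBP1 over shNC) with 95% intervals for the members, the other plasminogen system genes, coagulation genes and annexins that passed the filter, with filled points at an adjusted p under 0.05 and a gold diamond for SERPINB2, which was not tested. LRP1, MRC2, TFPI2, THBD, F3, ANXA3 and ANXA4 are filled, and MRC2 is the filled point below 0.

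Of 12 other clade B serpins, the intracellular serpins that include SERPINB2, 8 were matched, 4 were tested and 0 passed the adjusted threshold, while 1 had an unadjusted p under 0.05, beside 2.91% and 23.6% of all tested genes. That gene, SERPINB6, had the largest difference at 0.25 ± 0.09 (SE, adjusted p = 0.171), and SERPINB3 was listed at 0 in all 6 samples. SERPINE3, the clade E serpin listed, was at most 0.09 FPKM. Of the 11 listed genes beside SERPINB2 on chromosome 18 only 3 were tested, and 0 passed the threshold or had an unadjusted p under 0.05. The largest difference among these neighbors was that of VPS4B, an endosomal sorting ATPase, at 0.27 (adjusted p = 0.413). It stood at 9.36, 14.4 and 15.2 FPKM in the shNC samples and at 16.6, 14.3 and 15.1 FPKM in the shPQBP1 samples. With shNC replicate 1, the lowest value, left out the difference was 0.05, and after GC and length correction it was 0.07.

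Annexins other than ANXA2 gave 2 calls among 7 tested, both higher, beside 1.73% of all tested genes. ANXA3 stood at 20.0, 20.7 and 21.4 FPKM in the shNC samples and at 27.4, 28.3 and 27.1 FPKM in the shPQBP1 samples (log2 fold change 0.41 ± 0.07 SE, adjusted p = 0.0345). ANXA4 stood at 2.23, 2.38 and 2.15 FPKM against 3.36, 3.26 and 3.22 FPKM (0.52 ± 0.09 SE, adjusted p = 0.0411). The groups overlapped for neither gene, and both calls were lost without any 1 sample other than shNC replicate 1, with adjusted p-values of 0.0886 to 0.178. Among S100 proteins other than S100A10, 0 of 7 tested passed the adjusted threshold and 3 had an unadjusted p under 0.05 (2.91% and 23.6% of all tested genes), with the largest difference in S100A3 (-0.45 ± 0.11 SE, adjusted p = 0.0873).

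Of 11 factors described for SERPINB2 transcription or decay of its mRNA, all tested, 0 passed the adjusted threshold while before adjustment 5 had a p under 0.05, of which 2 were higher and 3 lower. Over all tested genes these shares were 2.91% and 23.6%. The largest difference was that of RELA, an NF-kappaB subunit, at -0.92 ± 0.21 (SE, adjusted p = 0.0749), with 16.1, 12.7 and 14.3 FPKM in the shNC samples and 6.07, 6.69 and 10.3 FPKM in the shPQBP1 samples. The AP-1 subunits JUN and FOSL1 were singled out after their values were seen, as the ones with the highest levels in this list. JUN stood at 102, 90.4 and 94.5 FPKM against 128, 136 and 119 FPKM (0.42 ± 0.08 SE, adjusted p = 0.0557). It passed the threshold after quantile normalization (adjusted p = 0.027), among genes averaging 10 FPKM or more (0.0452), after GC and length correction (0.00844) and without shNC replicate 1 (0.0422), and missed it under the other 12 alternatives (0.0541 to 0.251). FOSL1 stood at 276, 246 and 253 FPKM against 213, 226 and 229 FPKM (-0.21 ± 0.07 SE, adjusted p = 0.147), and its log2 fold change came to -0.08 after quantile normalization and -0.02 after GC and length correction.

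The level pattern of SERPINB2 over the 6 samples was most closely followed by C3, AC009237, FN1, KCNK3 and RGCC, by the root mean square difference of centered log2 levels. C3, the central complement component, was nearest at 0.117, with 1.92, 1.86 and 2.04 FPKM in the shNC samples and 7.46, 8.70 and 8.51 FPKM in the shPQBP1 samples. FN1 (fibronectin, a matrix protein that plasmin cleaves) lay at 0.208, with 42.5, 44.6 and 43.1 FPKM against 127, 155 and 149.5 FPKM. Pearson's r over the 6 samples was 0.989 to 0.996 for the 5 genes. These points share the same libraries, and r is set largely by the gap between the groups.

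SERPINB2 is also made by monocytes, so markers of cells that a culture of a cell line should lack were read beside it. PTPRC, the pan-leukocyte marker, was listed at 0 in all 6 samples, and CD14, LYZ, CD163 and CSF1R were at most 0.15 FPKM. ITGAM, an integrin subunit of myeloid cells, was listed at 0.49, 0.49 and 0.73 FPKM against 0.29, 0.24 and 0.28 FPKM, below the filter and lower in the shPQBP1 samples. The monocyte or macrophage list summed to 9.93 to 16.3 FPKM in the shNC samples and 12.6 to 21.6 FPKM in the shPQBP1 samples, nearly all from CD68, a lysosomal protein of many cell types (log2 fold change 0.29, adjusted p = 0.531, but 0.05 without shNC replicate 3 and 0.08 without shPQBP1 replicate 3). The endothelium list summed to 2.43 to 3.29 and 3.25 to 3.91 FPKM, nearly all from CDH5 (0.44, adjusted p = 0.151). PECAM1, an adhesion molecule of endothelial cells, was listed at 0.24, 0.23 and 0.25 FPKM against 0.02, 0.03 and 0.06 FPKM, again below the filter and lower in the shPQBP1 samples. KDR of the same list was at 0.04, 0.09 and 0.12 FPKM against 0.12, 0.12 and 0.18 FPKM, and VWF was at most 0.04 FPKM. ITGAM and PECAM1 were singled out after their values were seen. The fibroblast list summed to 0.45 to 0.83 and 0.21 to 0.64 FPKM. Of the epithelium list the largest difference was that of PAX8, the Müllerian lineage factor, at 0.53 ± 0.14 (SE, adjusted p = 0.102).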

How the data were processed

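Poly(A) mRNA, captured on oligo-dT beads from 6 HEY samples (3 shNC, 3 shPQBP1), was sequenced paired-end. Per the submitters' notes, the authors used HISAT2 (version 2.2.0) for mapping to hg38, SAMtools (version 1.9) for sorting, StringTie (version 1.3.0) for transcript assembly and levels, and edgeR for their own group comparison. Which annotation release and strand setting they used is not given in the sources used here. The values used are FPKM as deposited by the authors, per gene and sample, with 2 decimals. The fold change, p-value and q-value columns of the authors' own comparison were not used. Depth is unknown, since between 2714 and 2954 single-exon genes with low levels in each sample showed no step of whole reads, and no counting interval is given.

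A gene was tested if its FPKM averaged 1 or more across the 6 samples (11413 of 32679 genes), on log2(FPKM + 0.1) without further scaling, so fold changes of low genes are understated. Groups were compared by limma 3.58.1 in R 4.3.3 (lmFit, eBayes with trend, two-sided), with Benjamini-Hochberg adjustment across all tested genes. The test was checked on simulated data. Single genes and the 4 ratios were also compared by exact permutation (Python 3.11.15, scipy 1.17.1). Same-numbered samples did not deviate together (correlations -0.186, -0.138 and -0.011), so the numbers were not used as pairs.

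The members and gene lists were chosen with earlier results of these data known. Named are the members, PQBP1, each listed gene with an adjusted p under 0.05, the gene with the largest difference and the genes at 0 in each list, and the 5 genes nearest to SERPINB2 in pattern. One item of the lists is not reported here. Alternatives changed the scaling (median of ratios, quantile), the filter (any gene above 0, or an average FPKM of 10 or more), the pseudocount (1 or 0.01) and the variance model (without trend), took the replicate number as a block, removed the trend of each sample on transcript GC content and length (natural splines with 5 degrees of freedom, GENCODE release 44, 11385 genes) with and without the block, or left out each sample in turn. Positions come from GENCODE release 44 and upstream windows from RefSeq (GRCh38.p14), and the authors' annotation may differ.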

Additional observations from a re-analysis of the deposited data

How the results depend on the processing

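With 3 samples per group and unknown depth, a p that missed the threshold does not show that levels were equal. SERPINB2 kept its direction under all alternatives, with a log2 fold change of 1.94 at a pseudocount of 1, 1.93 after GC content and length correction with or without the replicate block, and 2.01 to 2.13 with 1 sample left out. The members other than SERPINB2 called numbered 0, but 1 after quantile normalization, 3 after GC content and length correction, and 0 to 2 with 1 sample left out. The other plasminogen system genes called numbered 2, but 1 among all genes above 0, 5 after GC content and length correction, and 0 to 2 with 1 sample left out. The 2 called genes, LRP1 and MRC2, averaged 5.83 and 4.39 FPKM, so the stricter filter of 10 FPKM removed both. It left 0 calls among the remaining genes of this list, which cannot show whether the calls of LRP1 and MRC2 hold. All genes called numbered 332, but 190 among genes above 0, 211 at a mean FPKM of at least 10, 938 after GC content and length correction, and 30 to 464 with 1 sample left out, 464 being without shNC replicate 1. With the replicate number as a block, 0 genes were called (1840 at an unadjusted p under 0.05), and 21 when the block went with the GC content and length correction. Of the members and the other plasminogen system genes 0 were called in either case. The numbers did not pair the samples, since same-numbered samples correlated at -0.186 to -0.011. PLAUR turned to 0.111 and PLAT to 0.0223 after GC content and length correction, also with the block. With 1 sample left out PLAUR ranged from -0.0805 to 0.0247 and PLAT from -0.147 to 0.0244, turning sign without shNC replicate 1 (0.0247 and 0.0099) and, for PLAT, without shPQBP1 replicate 1. Of 406 values of single named genes under alternatives, 334 kept direction and side of the threshold, 50 lost a call, 15 gained one and 7 turned sign. The cause of these changes was not tested. Scalings moved the median log2 fold change of all genes by less than 0.1.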

Other observations

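Several listed genes stayed below the filter on low values and were not tested, and the following were singled out after their values were seen. F2RL1, the protease-activated receptor cleaved by trypsin-like proteases, was listed at 1.25, 0.91 and 1.40 FPKM in the shNC samples and at 0.21, 0.37 and 0.50 FPKM in the shPQBP1 samples. Its groups did not overlap, and it was lower in the shPQBP1 samples. The share without overlap, 34.4%, covers tested genes only, and none was computed for genes below the filter. F2R, the main thrombin receptor, stood at 10.3 to 11.7 and 10.4 to 11.9 FPKM. WT1, a transcription factor of serous ovarian carcinoma, was listed at 0.63, 0.71 and 0.68 FPKM against 0.31, 0.34 and 0.45 FPKM. Other listed genes below the filter were higher in the shPQBP1 samples without overlap, among them S100A1, SERPINB5 and S100A14. S100A1 was listed at 0.39, 0.36 and 0.52 FPKM against 0.61, 0.70 and 0.80 FPKM. At such levels the depth, which is unknown, limits what can be read from the difference.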
